A study of Mus musculus with 2 samples.

Results

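Among lung cells sorted for the endothelial surface protein PECAM1, a small population carried the RNA of monocytes and macrophages. Its members were chosen by gene detection. A member was a barcode with at least 500 detected genes and under 20% mitochondrial unique molecular identifiers (UMIs, the tags that count captured RNA molecules), with UMIs of at least 3 of the 6 myeloid genes Csf1r, Fcer1g, Ctss, Cybb, Adgre1 and Lst1, and of at most 1 of the 5 genes S100a8, S100a9, Cxcr2, Cd79a and Cd3e, which mark neutrophils, B cells and T cells. By this rule 127 of 16479 barcodes were members, 56 of 8568 in the control library and 71 of 7911 in the metastatic library. Of the 127 members, 76 also held a UMI of the endothelial genes Cdh5 or Cldn5, 35 in the control and 41 in the metastatic library. Both genes were detected in 32 members.

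The cells came from lungs of wild-type C57BL/6 mice, 6 h after tail vein injection. Control mice received phosphate-buffered saline, and metastatic mice received 200000 cells each of B16-F10, a mouse melanoma line. Each library pooled the sorted cells of 2 mice, and each group held 1 library, so library, mice and treatment cannot be told apart and no test between the groups was possible. Every interval is exact, at the 95% level, and reflects counting error alone, so that mouse-to-mouse variation lies outside it. Intervals on UMIs treat the UMIs of a cell as independent, so variation between cells lies outside them as well.

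Monocytes are blood leukocytes that patrol the vessel wall or enter tissue, where they can become macrophages. Alveolar macrophages live in the air space, clear surfactant lipid, and are held there by granulocyte-macrophage colony-stimulating factor and the transcription factor PPARG, whereas interstitial macrophages reside in the tissue around vessels and airways and produce the complement protein C1q. In models of lung metastasis, monocytes and macrophages are among the first host cells to meet tumor cells arrested in the capillaries.

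The name of the population was checked against myeloid genes that the rule did not use. Tyrobp, an adaptor of activating immune receptors, was detected in 54 of 56 control and 66 of 71 metastatic members, and Spi1, the transcription factor of the myeloid lineage, in 51 of 56 and 65 of 71. The same genes were found in 1.27% and 1.45% (Tyrobp) and in 0.470% and 0.472% (Spi1) of the endothelial cells, the background for free RNA. Members were deeper, with medians of 16570 and 14682 UMIs against 6204 and 6429 in endothelial cells. After every cell was thinned to 1000 UMIs, Tyrobp was still detected in 75.0% and 76.1% of the members and in 0.279% and 0.356% of the endothelial cells. Ptprc, which encodes the leukocyte antigen CD45, was detected in 52 of 56 and 69 of 71 members, and the labels name no step that removed cells with this protein. Pecam1 RNA itself was detected in 22 of 56 and 29 of 71 members, counts that include the members with much endothelial RNA described below.

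Endothelial RNA was unevenly spread over the members. The summed UMIs of Cdh5, the adherens junction cadherin of vessels, and Cldn5, the endothelial tight junction claudin, were 0 in 21 control and 30 metastatic members. They were between 1 and 6 in 23 and 25 members, with highest values of 3 and 4. In the other 12 and 16 members they began at 14 and 7 and reached 88 and 116. These 28 members held 9 to 12 (median 11) of 12 endothelial marker genes, against 0 to 10 (median 3) in the other 99. A barcode with many UMIs of both lineages may hold more than 1 cell, and whether it did was not tested. Expression was therefore summed over members without Cdh5 and Cldn5, and, for alveolar macrophage-like members, over those with fewer than 7 UMIs of both genes.

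**Figure D1:**
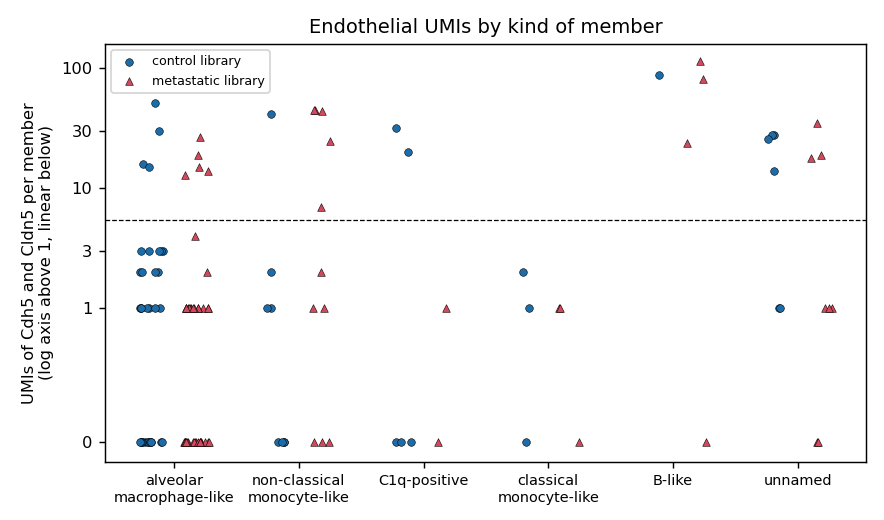
Summed UMIs of Cdh5 and Cldn5 (y axis, logarithmic above 1 and linear below) in each of the 127 members, by kind (x axis) and library (blue circles, control; red triangles, metastatic). The dashed line separates the 99 members with fewer than 7 UMIs from the 28 with 7 or more, and 4 of the 5 B-like members lie above it.

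At the edge of the rule, the numbers of members with exactly 3, 4, 5 and 6 of the 6 genes were 5, 13, 25 and 13 in the control library and 19, 15, 21 and 16 in the metastatic library. Barcodes with 2 of the genes, just outside, numbered 73 and 80. Tyrobp was detected in 3 of the 5 control and 15 of the 19 metastatic members with 3 genes, and in 14 and 11 of the barcodes with 2 genes. Spi1 was detected in 2 and 14 of the former and in 12 and 6 of the latter. A further 12 and 9 barcodes with at least 3 myeloid genes were left out because they held at least 2 of the 5 excluded genes. Between the libraries, 20 barcode sequences passed the filters in both, and 0 of these was a member. Every member's barcode had some UMIs in the other library, with medians of 0.711% and 0.860% of its own UMIs and a highest value of 3.37%.

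Most members were alveolar macrophage-like. They were named from 13 marker genes with a limit of 8. The 76 members with this name, 33 control (58.9%, 45.0–71.9) and 43 metastatic (60.6%, 48.3–72.0), held 8 to 13 of the markers, while the other 51 members held 0 to 2. The limits that separate the kinds were set after the values were seen, so the levels that follow describe the kinds and test nothing. Chil3, a chitinase-like protein secreted by alveolar macrophages, was detected in 76 of 76 such members, at 18.6 to 234 UMIs per 10000 (median 95.3). Plet1, a surface protein of these cells, and Atp6v0d2, a proton pump subunit of lysosomes, were detected in 76 of 76, the lipid droplet gene Cidec in 75, the mannose receptor Mrc1 in 75, the ribonuclease Ear1 in 74 and the keratin Krt79 in 73. The sialic acid receptor Siglecf, the surface marker that separates alveolar from other lung macrophages, was detected in 67, and Pparg in 66. The scavenger receptor Marco was less even. It was found in 32 of the 76 members, 18 of 33 control and 14 of 43 metastatic.

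The receptor for the growth factor that maintains alveolar macrophages was present as well. Its Csf2ra chain was detected in 72 and its Csf2rb chain in 75 of the 76 members. Markers of the other lung myeloid cells were at 0 in all 76 alveolar macrophage-like members for C1qa, a chain of C1q, for the fractalkine receptor Cx3cr1, for the adhesion receptor Adgre4 and for the transcription factor Pou2f2. Aif1, which most macrophages outside the alveoli carry, was detected in 2 of 76. The alveolar macrophage-like members had 10 to 14 of 15 myeloid genes that the rule did not use. Of those without Cdh5 and Cldn5, 1 of 13 control and 4 of 22 metastatic cells held Pecam1. The 15 genes that stood highest over endothelial cells in the members without Cdh5 and Cldn5 included 6 of the 13 alveolar macrophage markers. They were Wfdc21, Cybb (a gene of the rule), Plet1, Ccl6, Mpeg1, Il18, Atp6v0d2, Fabp1, Clec4n, Mcemp1, Olr1, Ear1, Krt79, Ear2 and Chil3. Wfdc21 had log2 ratios to endothelial cells of 11.01 and 11.30 in the control and metastatic libraries.

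**Figure D2:**
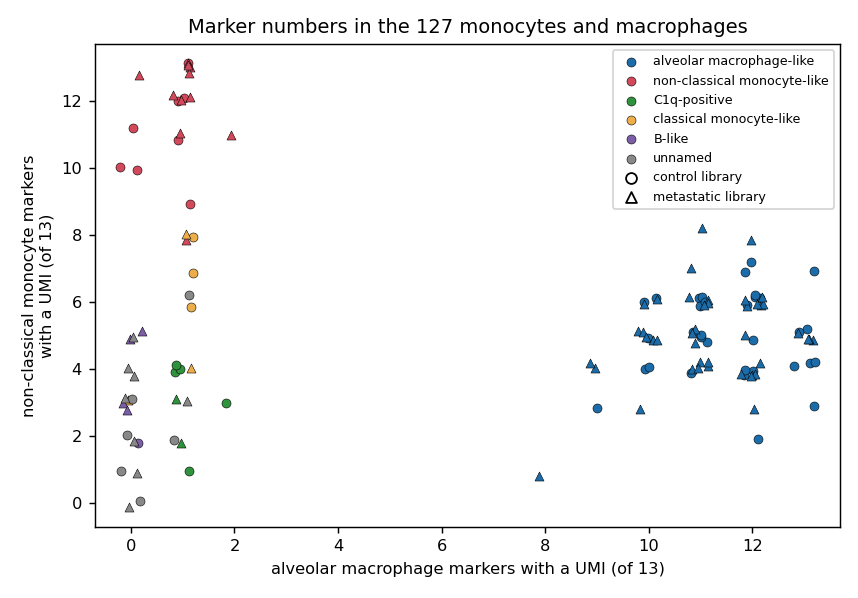
Number of alveolar macrophage markers (x axis, of 13) and of non-classical monocyte markers (y axis, of 13) with at least 1 UMI in each of the 127 members, with small random shifts so that points do not hide each other. Colors give the kind, circles the control and triangles the metastatic library. The 76 alveolar macrophage-like members sit at 8 to 13 on the x axis, and no member lies between 2 and 8.

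A fraction of the alveolar macrophage-like members carried cell division genes. At least 3 of 6 proliferation genes were detected in 5 of 33 control and 5 of 43 metastatic alveolar macrophage-like members, and in 0 of the other 51 members. Mki67, the nuclear antigen of dividing cells, was detected in 17 of the 76. Among the members without Cdh5 and Cldn5, clustering at a resolution of 1 gave 2 clusters of this kind. A cluster of 15 (7 control, 8 metastatic) was led by Cenpf, Nusap1, Cenpe and Prc1, which act in chromosome segregation and cell separation. Of the metastatic UMIs of further cell division genes in the members without Cdh5 and Cldn5, a single cell held 94.0% for Pclaf, 90.3% for Top2a and 76.4% for Mki67. Another of 19 (6 control, 13 metastatic) was led by Gdf15, Sgms2, Mcoln3 and Krt19. Both are clusters of the alveolar macrophage-like kind, with 8 to 13 markers in each cell. At a resolution of 0.5 the number of clusters was 3 and at 1.5 it was 6.

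Non-classical monocyte-like members were next in number, 8 control (14.3%, 6.38–26.2) and 11 metastatic (15.5%, 8.00–26.0). These are the monocytes that crawl along the inside of capillaries. They held 8 to 13 of 13 markers. Pou2f2, Gngt2 and the integrin chain Itgal were each detected in 19 of 19, the fractalkine receptor gene Cx3cr1 in 18, Treml4 in 17, Adgre4 in 16 and Spn, a sialoprotein of the leukocyte surface, in 15. Some alveolar macrophage-like members also held up to 8 of these 13 genes. Ear2 was detected in 74, Itgal in 70, Gngt2 in 70 and Fabp4 in 57 of those 76. Alveolar markers kept the kinds apart. Their depth was lower, with medians of 6354.5 and 7500 UMIs against 19199 and 16257 in the alveolar macrophage-like members. Clustering placed 7 non-classical monocyte-like and 2 other members without Cdh5 and Cldn5 in a cluster of 9 led by Ly6c2, Plac8, Fyb and Pou2f2.

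Classical monocyte-like members numbered 3 in each library. They held 8 to 10 of 10 markers, and Ly6c2, the antigen that defines inflammatory monocytes in mice, and Ccr2, the chemokine receptor that brings them out of the marrow, were detected in 6 of 6. Ly6c2 was found in 1 of the 19 non-classical monocyte-like members. C1q-positive members, 5 control and 2 metastatic, were defined by all 3 C1q genes. They held 7 to 11 of 12 interstitial macrophage markers, against at most 4 in the alveolar macrophage-like members. The 12 markers include the 3 C1q genes, so that part of the contrast was set by the definition. Their C1qa level reached 64.3 UMIs per 10000 (median 38.0), and C1qa was at 0 UMIs in every non-classical and classical monocyte-like member. The folate receptor gene Folr2 was detected in 1 of 7.

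The remaining 19 members were not clearly monocytes or macrophages. The B-like members, 1 control and 4 metastatic, held 5 to 7 of 7 B cell markers, 4 to 12 (median 12) of 12 endothelial markers and only 5 to 8 of the 15 unused myeloid genes, and 4 of the 5 held 7 or more UMIs of Cdh5 and Cldn5. The other 14, 6 control and 8 metastatic, fitted no list and stayed unnamed. Of these, 8 carried 7 to 12 endothelial markers. The other 6, 1 control and 5 metastatic, held 51 to 334 (median 170) UMIs of H2-Ab1, a chain of the MHC class II molecule that presents antigen to T cells, with 2 to 6 of 12 dendritic cell markers. Among the unnamed members, Cd209a, a lectin of dendritic cells, was found in 6 of 14. Ccl17, a chemokine that attracts T cells and is made by dendritic cells, was found in 3 of 14, all metastatic, with 270 UMIs, of which 201 came from 1 cell.

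The first comparison asked whether the number of these cells differed between the libraries. Members made up 0.654% (0.494–0.848) of the control and 0.897% (0.702–1.13) of the metastatic barcodes. Without Cdh5 and Cldn5 the shares were 0.245% (0.152–0.374) and 0.379% (0.256–0.541). Both pairs of intervals overlapped, so at this depth of sampling the shares could not be told apart. Members with 3 of the 6 genes made up much of the gap. When 4 genes were required, the member share difference was 0.0621 percentage points, against 0.244 with 3. Within the members, the shares of alveolar macrophage-like and of non-classical monocyte-like cells had overlapping intervals as well. C1q-positive cells were 8.93% (2.96–19.6) of control members and 2.82% (0.343–9.81) of metastatic members, again with overlap.

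**Figure D3:**
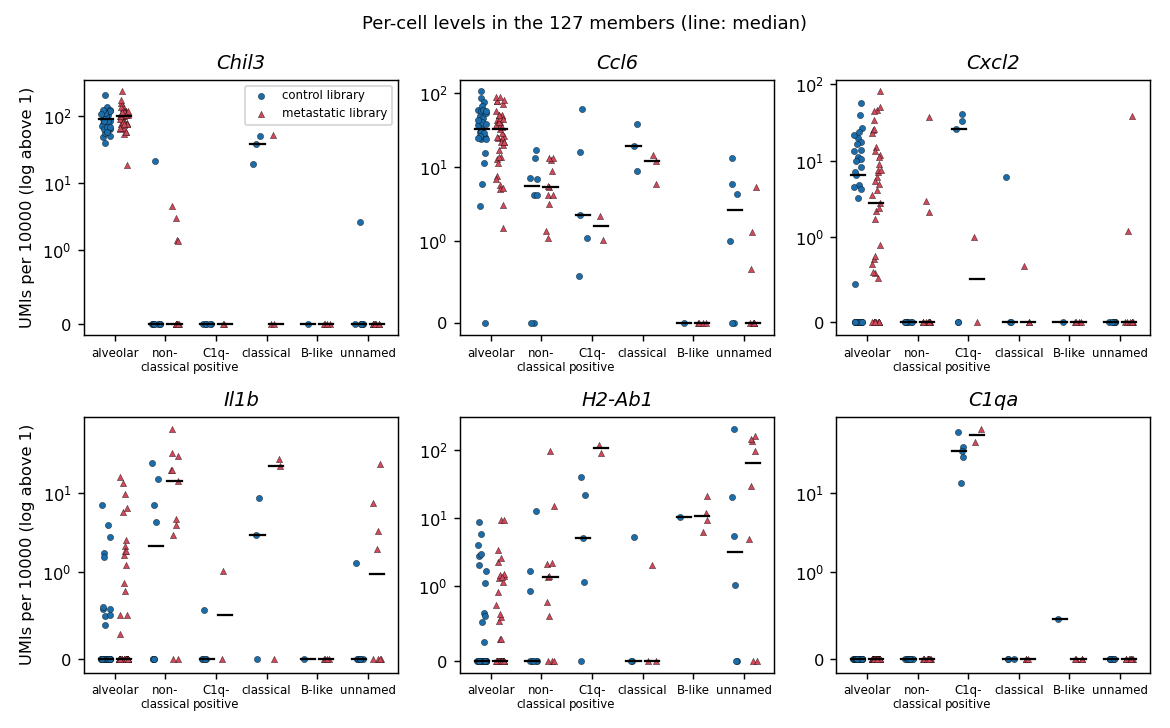
Levels of 6 genes in each of the 127 members (y axis, UMIs per 10000 UMIs of the cell, logarithmic above 1) by kind (x axis) and library (blue circles, control; red triangles, metastatic), with the median as a line. Chil3 and Ccl6 are high in the alveolar macrophage-like members of both libraries, C1qa is at 0 outside the C1q-positive members except for 1 UMI in 1 B-like member, and Il1b has its highest values in monocyte-like members of the metastatic library.

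The second comparison asked how the alveolar macrophage-like members differed between the libraries. It rested on 29 control and 38 metastatic cells with fewer than 7 UMIs of Cdh5 and Cldn5, and on 532280 and 643851 UMIs, given as CPM (UMIs scaled to a total of 1000000 per library). Over 4485 genes with at least 40 UMIs, the log2 ratio of metastatic to control had a median of -0.01, and its central 95% ran from -0.77 to 0.73. By at least 2-fold, 27 genes (0.602%) were higher and 47 genes (1.05%) were lower in the metastatic library. In endothelial cells thinned to the same UMIs, 51 of 4865 genes (1.05%) were higher and 26 (0.534%) lower. The counting interval of the log2 ratio lay above 0 for 210 genes (4.68%) and below 0 for 238 (5.31%).

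The 12 genes on each side with the interval farthest from 0 were picked from these same data, so that ratios of both signs were given by the choice. Some of these genes handle fatty acids. Fabp4, a fatty acid binding protein of macrophages and capillaries (chromosome 3, 10204088–10208576, minus strand, GRCm38), had 249 control and 150 metastatic UMIs. This was 468 (411–530) against 233 (197–273) CPM, with a log2 ratio of -1.01 (-1.31 to -0.71). Its median per cell over all 76 alveolar macrophage-like members was 5.26 control and 1.38 metastatic UMIs per 10000, and the cells of the libraries overlapped over the whole range from 0 to 12.1. Fabp1, a fatty acid binding protein otherwise known from liver (chromosome 6, 71199827–71205023), had 255 and 458 UMIs, or 479 (422–542) and 711 (648–780) CPM, with a log2 ratio of 0.57 (0.35 to 0.80). Acaa1b, a thiolase of peroxisomal fatty acid oxidation, had 286 and 463 CPM, with a log2 ratio of 0.70 (0.41 to 0.99). In endothelial cells Fabp4 was at 81.8 and 117 CPM, below its level in the alveolar macrophage-like members of both libraries, and its log2 ratio there was 0.52.

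Receptors for particles and antibody were also among the genes picked in this way. Marco, which binds bacteria and inhaled particles (chromosome 1, 120474538–120505024), had 229 and 145 UMIs, or 430 (376–490) and 225 (190–265) CPM, with a log2 ratio of -0.93 (-1.24 to -0.63). It was detected in 16 of 29 control and 13 of 38 metastatic cells. Gpnmb, a glycoprotein of lysosomes and of lipid-laden macrophages, had 287 and 138 CPM, with a log2 ratio of -1.06 (-1.45 to -0.67). Fcgr3, a low-affinity receptor for immunoglobulin G (chromosome 1, 171051174–171064935), was on the other side, with 115 (87.7–147) and 203 (170–241) CPM and a log2 ratio of 0.83 (0.38 to 1.29). It was detected in 22 of 29 and 35 of 38 cells. Outside this choice, on the list of phagocytic receptors, the mannose receptor Mrc1 had 1388 and 1361 CPM, a log2 ratio of -0.03 (-0.17 to 0.11). The apoptotic cell receptors Mertk and Axl, on the same list, had log2 ratios of 0.03 and 0.00.

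The other genes named by the same rule had roles in diverse processes. On the higher side, Dcun1d5, which promotes neddylation of cullins, had 24 and 68 UMIs and a log2 ratio of 1.23 (0.54 to 1.96). Next came the phosphatase subunit Ppp4r3a, the Golgi proteins Glg1 and Golgb1, Dock5, which activates the small GTPase Rac, the kinase Camkk2, the actin nucleation subunit Arpc1a, Ufc1, which conjugates the modifier UFM1, and Dpm3, a subunit of the enzyme that makes the mannose donor of glycosylation. Their log2 ratios were between 0.87 and 1.19. On the lower side, Gdf15, a stress-induced cytokine, had 37 and 16 UMIs, a log2 ratio of -1.48 (-2.43 to -0.60), with 37.5% of the metastatic UMIs in 1 cell. Lysmd3, Nbeal1, Banp, Tacc2, Agap1, the zinc transporter Slc30a7, the RNA helicase Ddx10 and the transcription factor Hivep3 had log2 ratios between -1.66 and -0.91. Of the genes past 2-fold, 24 of the 27 higher and 42 of the 47 lower were detected in at least 5 cells with no single cell over 25% of the UMIs. Both limits applied only to the library with the higher CPM.

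**Figure D4:**
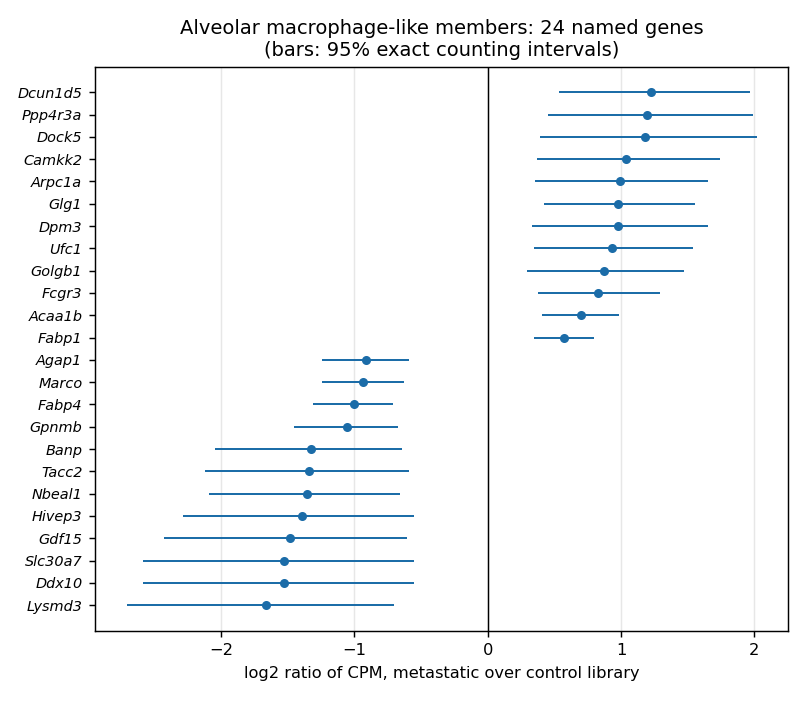
Log2 ratio of CPM (x axis, metastatic over control library) for the 24 named genes (y axis) in the alveolar macrophage-like members with fewer than 7 UMIs of Cdh5 and Cldn5, 29 control and 38 metastatic cells. Bars are 95% exact counting intervals and do not include variation between mice or between cells. Lysmd3 has the lowest ratio at -1.66 and Dcun1d5 the highest at 1.23.

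Response genes of the alveolar macrophage-like members had ratios of both signs, more often below 0 than above. The 16 response lists held 109 genes with at least 40 UMIs in these cells. The interval of the log2 ratio lay above 0 for 8 of them and below 0 for 21, beside 4.68% and 5.31% of all genes. Endothelial cells thinned to the same UMIs had 98 such genes, with the interval above 0 for 26 and below 0 for 11, beside 5.71% and 5.22% of all genes. Chemokine genes had a median log2 ratio of -0.09 over 4 genes in the alveolar macrophage-like members and of 0.82 over 9 genes in endothelial cells, beside medians over all genes of -0.01 and 0.03. The interval was away from 0 for 2 of the 4 chemokine genes, 1 on each side, and for 3 of the 6 cytokine genes, 2 above and 1 below. The endothelial medians in this and the next paragraphs are from all endothelial UMIs unless thinned cells are named, so depth and genes differ between the cell types. For cytokines the medians were -0.14 over 6 and 0.76 over 9 genes, for NF-kB feedback genes -0.05 over 9 and 0.37 over 16, and for MHC class I genes -0.02 over 6 and 0.32 over 10. In the thinned endothelial cells these medians were 0.76 over 4, 0.20 over 7 and 0.27 over 9 genes. Only 1 chemokine gene reached 40 UMIs there, with a log2 ratio of 0.14. Only 2 of the 18 interferon-stimulated genes reached 40 UMIs in the alveolar macrophage-like members. The difference between the cell types was not tested.

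Among the secreted signals, Ccl6, a chemokine of resting lung macrophages, had 2310 and 2326 UMIs, or 4340 and 3613 CPM, with a log2 ratio of -0.26 (-0.35 to -0.18). Cxcl2, which attracts neutrophils, had 969 and 1028 CPM, a log2 ratio of 0.08 (-0.08 to 0.25). It was uneven among cells, from 0 to 57.0 UMIs per 10000 in control and from 0 to 80.5 in metastatic alveolar macrophage-like members. The inflammasome cytokine Il18 had a log2 ratio of 0.00 (-0.23 to 0.23), and Tnf had 39 and 27 UMIs with a log2 ratio of -0.81 (-1.57 to -0.06). Of the 39 control Tnf UMIs, 12 came from 1 cell and 11 from another, so this ratio rested on few cells. Il1rn, the antagonist of the interleukin 1 receptor, had a log2 ratio of -0.35 (-0.77 to 0.07). Higher values were those of Ccl3, with 13 and 32 UMIs (log2 ratio 1.02, 0.05 to 2.08), which was the 1 chemokine past 2-fold, of Il1b (log2 ratio 0.65, 0.00 to 1.33) and of the anti-inflammatory Tgfb1 (log2 ratio 0.38, 0.05 to 0.72).

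Genes of phagocytosis and lysosomes lay on both sides of 0 in the alveolar macrophage-like members, with list medians close to that of all genes. The median log2 ratio was -0.01 over 10 phagocytic receptors, with 1 interval above 0 (Fcgr3) and 3 below, beside 4.68% and 5.31% of all genes. The 3 were Marco, the integrin chain Itgax, at -0.55 (-0.85 to -0.24), and the lipid scavenger Cd36, at -0.48 (-0.75 to -0.21). The median was 0.02 over 14 lysosomal genes, with 2 intervals above 0 and 3 below. Above 0 were the membrane proteins Lamp1, at 0.26 (0.07 to 0.45), and Cd63, at 0.56 (0.08 to 1.06). Below 0 were Gpnmb, which was past 2-fold, the progranulin gene Grn, at -0.29 (-0.56 to -0.01), and the protease Ctsd, at -0.10. The lipid hydrolase activator Psap was at 0.00. Glucocorticoid-responsive genes had a median of -0.03 over 9 genes here and of -0.28 over 12 in endothelial cells. Fkbp5, a chaperone induced by the glucocorticoid receptor, had log2 ratios of -0.04 and -0.88 in these cell types, and Per1 of 0.08 and -0.98. Of 12 immediate early genes, which respond to tissue handling among other stimuli, 4 had an interval below 0 in the alveolar macrophage-like members and 0 above, beside 5.31% and 4.68% of all genes, and Fos had a log2 ratio of -0.44. In endothelial cells 3 had an interval below 0 and 7 above, beside 16.5% and 25.3% of all genes. The median was -0.11 for 6 checkpoint and costimulation genes, -0.24 for 7 adhesion genes, 0.02 for 6 heat shock genes and -0.16 for 7 genes of glycolysis.

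**Figure D5:**
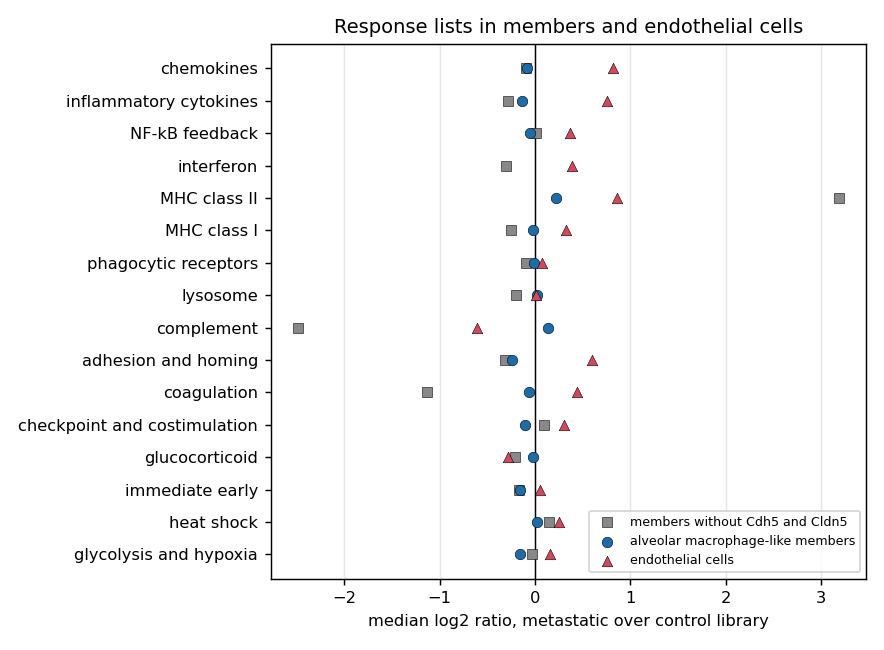
Median log2 ratio of CPM (x axis, metastatic over control library) of the genes with at least 40 UMIs in each of 16 response lists (y axis), for members without Cdh5 and Cldn5 (gray squares), alveolar macrophage-like members (blue circles) and endothelial cells, with medians of fewer than 3 genes left out. The endothelial values use all endothelial UMIs, a far greater depth. MHC class II and complement stand far from 0 in the mixed members, at 3.19 and -2.49, but lie at 0.22 and 0.14 in the alveolar macrophage-like members.

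The third comparison took all kinds together, over the 21 control and 30 metastatic members without Cdh5 and Cldn5 (312474 and 435111 UMIs). Of 3147 genes with at least 40 UMIs, 73 (2.32%) were at least 2-fold higher and 67 (2.13%) at least 2-fold lower in the metastatic library. Among the response lists, MHC class II, complement and coagulation genes had medians far from 0. MHC class II genes had a median log2 ratio of 3.19 over 6 genes, with 5 past 2-fold higher and 6 intervals above 0, beside 7.75% of all genes. The median was 0.81 over all 127 members. It turned to -0.25 when all cells were thinned to 1000 UMIs. The members, and those without Cdh5 and Cldn5, were then chosen anew on the thinned counts, so the cells were not the same. H2-Ab1 had 25 control and 448 metastatic UMIs, of which 265 came from 2 unnamed cells and 116 from 1 C1q-positive cell. The 3 control cells of the C1q-positive kind held 10. Cd74, the invariant chain that guides class II molecules, had 162 and 1839 UMIs, a log2 ratio of 3.03, with 57.8% of the metastatic UMIs in the same 2 unnamed cells. In the alveolar macrophage-like members H2-Ab1 had a log2 ratio of 0.26 (-0.28 to 0.82) and Cd74 of 0.22 (-0.03 to 0.47).

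Complement genes had a median of -2.49 over 6 genes, 4 of them past 2-fold lower and with the interval below 0, beside 7.47% of all genes. C1qa had 184 and 43 UMIs, and all of these came from 3 control and 1 metastatic C1q-positive cells. Apoe, the lipid carrier of tissue macrophages, had 1001 and 128 UMIs, and 90.1% of its control UMIs were in the 3 C1q-positive cells. Coagulation genes had a median of -1.13 over 6 genes, 3 of them past 2-fold lower and 5 with the interval below 0, and were at -0.060 over 4 genes in the alveolar macrophage-like members. F13a1, the clotting factor that crosslinks fibrin, had 94 and 21 UMIs, and 68 of the control UMIs were in the 3 C1q-positive cells. Lyz2, the lysozyme of myeloid cells (chromosome 10, 117277331–117282321), had 5471 and 3719 UMIs, a log2 ratio of -1.03 (-1.10 to -0.97), and 34.2% of its control UMIs came from the same 3 cells. Lyz2 has a near-identical neighbor, Lyz1, and reads of such copies, as of the Ear and MHC genes, can be hard to assign to 1 gene in counting. Its median in the alveolar macrophage-like members was 85.0 and 78.3 UMIs per 10000. The antigen chain H2-D1 (log2 ratio -0.74), the phosphatase gene Dusp1 (-0.72), the integrin chain Itga4 (-1.08) and the clotting factor F10 (-1.33) were also among the lower genes. Further lower genes were Crip1, Fabp4, Fam46a, Hip1 and Marveld1, with log2 ratios between -1.58 and -1.08.

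The genes named by the rule on the higher side of the mixed members had smaller counts. Dcun1d5 headed them, with 15 and 55 UMIs, a log2 ratio of 1.40 (0.55 to 2.33), in 9 of 21 and 20 of 30 cells. Of these cells, 13 of 21 and 22 of 30 were already in the comparison of alveolar macrophage-like members. A gene named in both is therefore not a separate observation. Fabp5, another fatty acid binding protein, had 240 and 448 CPM, a log2 ratio of 0.90 (0.51 to 1.30). Il13ra1, a chain of the interleukin 13 receptor, had 11 and 42 UMIs, a log2 ratio of 1.46 (0.47 to 2.56). Cdkn1a, the inhibitor of the cell cycle known as p21, had 371 and 630 CPM (log2 ratio 0.76, 0.44 to 1.09), but over all 127 members, those with endothelial RNA included, its log2 ratio was -0.46. Krcc1, Wdfy4, Dennd4a, Osgep, Supt16, Golgb1, Hebp1 and Ccng1 had log2 ratios between 0.87 and 1.61, although Dennd4a was at -0.02 in the alveolar macrophage-like members. Of the genes past 2-fold here, 41 of 73 higher and 29 of 67 lower were detected in at least 5 cells with no single cell over 25% of the UMIs, in the library with the higher CPM.

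The fourth description concerned which ligands of the sorted cells came from the members. All shares of UMIs here and in the next paragraphs are of the barcodes that passed the filters for genes and mitochondrial UMIs. Of all UMIs in these barcodes, members held 1.69% in the control and 2.25% in the metastatic library. Yet 83.0% and 81.4% of the Ccl6 UMIs, 84.8% and 86.8% of the Il18 UMIs, 79.7% and 70.7% of the Il1rn UMIs and 52.6% and 51.7% of the Cxcl2 UMIs were theirs. Of the angiogenic factor Vegfa, by contrast, they held 0.262% and 0.286%, and of Csf1, the growth factor of macrophages, 0.216% and 0.447%. Almost all UMIs of these last genes were in endothelial cells.

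Il1b, the early cytokine of inflammation (chromosome 2, 129364570–129371139), was found in members, in neutrophils and in barcodes of neither group. Members held 85 of 1151 Il1b UMIs (7.38%, 5.94–9.05) in the control and 460 of 1600 (28.8%, 26.5–31.0) in the metastatic library, while neutrophils held 723 and 627. Endothelial cells held 30 and 50, and the rest lay in barcodes outside these groups. Of the member UMIs, non-classical monocyte-like members held 40 and 186, alveolar macrophage-like members 31 and 146, and classical monocyte-like members 11 and 71. In non-classical monocyte-like members Il1b was detected in 4 of 8 control and 9 of 11 metastatic cells, with medians of 2.13 and 14.5 and highest values of 24.2 and 66.0 UMIs per 10000. These ranges overlapped, and both started at 0. The cells with 7 or more UMIs of Cdh5 and Cldn5, 1 control and 5 metastatic, were included here. In alveolar macrophage-like members the median was 0 in both libraries, with 11 of 33 and 16 of 43 cells positive, and 1 metastatic cell held 54 UMIs. With fewer than 7 UMIs of Cdh5 and Cldn5, Il1b had 31 and 59 UMIs in this kind, a log2 ratio of 0.65 (0.00 to 1.33). Il1b was detected in 0.414% and 0.762% of endothelial cells, which is the background for free RNA.

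Other ligand shares rested on few cells. Of the Ccl17 UMIs, members held 1.97% in the control and 72.4% in the metastatic library, and of the Ccl22 UMIs 1.29% and 86.5%. The totals were higher in the control library, with 557 and 384 UMIs of Ccl17 and 155 and 104 of Ccl22. Of the 557, members held 11 and endothelial cells 125, and the rest lay in other barcodes. In the metastatic members, 270 of the 278 Ccl17 UMIs and 88 of the 90 Ccl22 UMIs were in unnamed cells. The metastatic unnamed cells with few endothelial markers each held 3 of the 6 rule genes, the fewest allowed, so these shares depend on the rule. The member share of Ccl4 was 10.4% and 40.8%, and that of Tnf 51.8% and 74.8%. Alveolar macrophage-like members held 41 of the 44 control and 33 of the 89 metastatic Tnf UMIs of the members, and 1 unnamed metastatic cell held 53.

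Melanoma RNA was near the background in these cells. Over 8 melanocyte marker genes, members held 2 UMIs in the control and 5 in the metastatic library, 2.23 CPM (0.270–8.04) and 4.40 CPM (1.43–10.3). Endothelial cells had 2.02 CPM (1.64–2.46) and 2.67 CPM (2.22–3.19). The intervals overlapped, so uptake of melanoma RNA by the members was not detectable at this depth. RNA of red cells and of alveolar epithelium was found in the members as well, at lower levels than in endothelial cells. The 5 erythroid genes had 211 and 109 CPM in members against 1897 and 1218 CPM in endothelial cells, and the 6 epithelial genes had 199 and 154 against 1331 and 1166 CPM. Hbb-bs, a globin gene of red cells, was detected in 78.6% of control and 53.5% of metastatic members, against 76.7% and 56.8% of endothelial cells. Sftpc, the surfactant protein gene of alveolar type II cells, was detected in 58.9% and 40.8% of members and 43.6% and 37.3% of endothelial cells, shares that were taken at the unequal depths given above.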

How the data were processed

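Lung cells sorted for PECAM1 were profiled with the 10x Genomics 3′ assay, 1 library per group. Per the labels, reads were processed with Cell Ranger against mm10, and the deposited values are raw counts of UMIs for every gene and barcode, before any cell was called. The file headers name software version 3.1.0, and the annotation release is not given in the sources used here. The libraries held 67929614 and 64733724 UMIs.

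Members, kinds and gene lists were chosen with earlier results of these data known. The limits of the kinds, the limit of 7 UMIs of Cdh5 and Cldn5 and the separate comparison of alveolar macrophage-like members were chosen after seeing the data. Alveolar macrophage-like members held at least 8 of 13 markers, classical and non-classical monocyte-like members at least 8 of 10 and of 13, B-like members at least 5 of 7, and C1q-positive members all 3 C1q genes. Endothelial cells had UMIs of both Cdh5 and Cldn5, at most 1 of the 6 myeloid and at most 1 of the 5 excluded genes.

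UMIs were summed per library and given as CPM with exact Poisson intervals. Shares carry Clopper-Pearson intervals and log2 ratios exact conditional binomial intervals. Genes with at least 40 UMIs over both libraries were compared, and a gene at 0 in a library was set to 3 counts over the group, which makes its ratio a bound. Genes were named from lists of chemokines, cytokines and other responses. Further genes were the 12 on each side with the interval farthest from 0, leaving out mitochondrial, globin, Gm and Rik genes. These had to be detected in at least 5 cells with at most 25% of UMIs in 1 cell, in the library with the higher CPM only. Also named were the 15 genes with the highest ratio to endothelial cells among those with at least 200 UMIs. A few genes that the rules name are not reported here. No doublet caller was run. Instead the members were divided by their Cdh5 and Cldn5 UMIs. The 51 members without these genes were clustered with the Leiden method on 15 components and 5 neighbors. Gene positions are from GENCODE M21 (GRCm38). The code for ratios and intervals was tested on simulated Poisson counts. These held no variation between cells, so the test says nothing on genes whose UMIs come from few cells. Python 3.11.15, numpy 2.4.6, scipy 1.17.1, pandas 2.3.3, scanpy 1.11.5, igraph 0.11.9 and matplotlib 3.10.9 were used. Alternatives changed the gene minimum, the number of markers, the depth, the scaling, the weight of cells and the UMI minimum.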

Additional observations from a re-analysis of the deposited data

Results flagged for a closer look

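Of 109 response genes with at least 40 UMIs in the alveolar macrophage-like members, 10 had log2 ratios (metastatic over control library) of opposite sign in these members and in endothelial cells, with both counting intervals away from 0. The differences were not tested, since each group held 1 library. The alveolar interval lay above 0 for 4.68% and below 0 for 5.31% of all genes. The endothelial ratios used all endothelial UMIs, where the interval lay above 0 for 25.3% and below 0 for 16.5% of all genes. At that depth endothelial ratios near 0, as for H2-D1 and Egr1, could pass. The share of all genes with such opposite signs was not determined. Of these, 9 were lower in the alveolar macrophage-like members and higher in endothelial cells. Among the 9 were the integrin chain Itga4 (-0.73 and 0.67), the hyaluronan receptor Cd44 (-0.40 and 0.69), the NF-kB feedback genes Tnfaip3 (-0.56 and 0.99) and Tnfaip2 (-0.29 and 1.32), the lactate dehydrogenase chain Ldha (-0.38 and 0.35), the class I genes B2m (-0.19 and 0.12) and H2-D1 (-0.20 and 0.02), and the immediate early gene Egr1 (-0.36 and 0.02). The other, Lamp1, a membrane protein of lysosomes, was higher in the alveolar macrophage-like members (0.26) and lower in endothelial cells (-0.11).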

How the results depend on the processing

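No paired analysis was possible because each group held 1 library, and for the same reason no replicate could be left out. Both differences of shares kept their sign under every alternative. Among the members without Cdh5 and Cldn5, the genes past 2-fold numbered 637 higher and 440 lower with at least 10 UMIs, 13 and 28 with at least 100 UMIs, and 3 and 5 after thinning to 1000 UMIs per cell, where fewer genes could be compared. The median log2 ratio of MHC class II genes was 2.09 with at least 4 of 6 markers, 0.81 over all members, and -0.25 after thinning, a reversal. For thinned values of this group the members, and those without Cdh5 and Cldn5, were chosen anew on the thinned counts. The cells were therefore not the same, and these values do not separate depth from the choice of cells. After thinning, MHC class I genes were at -0.80 and lysosomal genes at 0.32. Over all members, chemokines were at 1.68, MHC class I genes at 0.28, complement at -1.55 and coagulation genes at -0.37. Cytokines were at 0.23 with at least 100 UMIs. Dennd4a reversed to -1.69 and Cdkn1a to -0.11 after thinning, and Cdkn1a to -0.46 over all members. In settings chosen after seeing the data, members with fewer than 7 UMIs of Cdh5 and Cldn5 gave 1.37 for chemokines, 0.30 for cytokines, 1.16 for MHC class II and -1.10 for complement. Alveolar macrophage-like members alone gave 27 higher genes, 0.22 for MHC class II, -0.060 for coagulation, and reversals of complement (0.14) and Dennd4a (-0.020). For the alveolar macrophage-like members, genes past 2-fold numbered 389 higher and 343 lower with at least 10 UMIs, 0 and 3 with at least 100 UMIs, 1 and 5 after thinning, and 59 and 23 without Cdh5 and Cldn5. The lower genes numbered 31 with at most 5000 genes per cell and 72 with equal weight of cells, and the higher genes 57 with all members of the kind. Chemokines were at -0.27 with at least 10 UMIs and coagulation genes at -0.81 without Cdh5 and Cldn5. The causes of these changes were not tested. Lists with fewer than 3 genes under stricter settings gave no value. The small number of cells limits the precision of all of them.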
